A study of Rattus norvegicus with 6 samples.

Results

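Mpeg1, a gene of phagocytes, ranged from 0 to 31862 reads between libraries of rat pancreatic duct glands, and the genes set beside it are 9 that are widely used as macrophage markers: Cd68, Csf1r, Cd163, Mrc1, Lyz2, Cd14, Tyrobp, Fcer1g and Laptm5. The 10 genes were chosen by the spread of the Mpeg1 reads between libraries, with the question whether the others follow it, so the Mpeg1 values are given as a description without a test. All 10 are among the 15679 rows measured, and all 10 passed the filter on low values with 12102 genes in all.

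The glands are mucin-producing pouches of the larger pancreatic ducts. They were recognised by morphology, cut out by laser capture microdissection and sequenced as RNA. The 3 HIP libraries, HIP30, HIP2 and HIP3, came from pre-diabetic Sprague-Dawley rats with a transgene for human islet amyloid polypeptide, HIAPP, a model of type 2 diabetes in which an insulin promoter drives the transgene in beta cells. The 3 WT libraries, WT26, WT1 and WT4, came from wild-type Sprague-Dawley rats. The sources used here give neither age nor sex, and do not say whether each library is 1 animal. The p-values therefore reflect only how far these libraries vary, some of which could be technical. Library totals lay between 15141136 and 17574682 reads, and levels are given as CPM, which scales reads to the total reads of each library. In tissue cut by laser, a lower level can come from fewer cells of a type or from less RNA per cell, which cannot be told apart here.

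Macrophages are resident phagocytes of the connective tissue around ducts, and they depend on signals through the receptor encoded by Csf1r. They engulf particles with surface receptors such as those of Mrc1 and Cd163, signal through small adaptor proteins such as those of Tyrobp and Fcer1g, and degrade what they take up in lysosomes. Mpeg1 encodes a pore-forming protein of the perforin family that acts on bacteria inside phagocytic vesicles. The transcription factor PU.1, encoded by Spi1, drives many genes of this lineage and binds DNA around the letters GAGGAA.

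To show which letters these genes share in front of their starts, the promoters of 4 are printed beside that of Mpeg1. RefSeq's table for the GRCr8 build holds 8 of the 10 genes, all but Tyrobp and Fcer1g. The 250 bases before the start of 5 of them follow, 5′ to 3′ on the gene's strand. GAGGAA on either strand (TTCCTC as its reverse complement) and the AP-1 letters TGANTCA are in capitals.
Mpeg1, chr1:218876644-218876893, plus strand: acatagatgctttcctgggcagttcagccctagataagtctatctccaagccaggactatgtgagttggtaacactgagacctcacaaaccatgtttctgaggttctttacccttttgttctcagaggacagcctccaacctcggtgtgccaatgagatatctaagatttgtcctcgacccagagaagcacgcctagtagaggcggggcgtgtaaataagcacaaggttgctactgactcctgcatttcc
Csf1r, chr18:56834129-56834378, plus strand: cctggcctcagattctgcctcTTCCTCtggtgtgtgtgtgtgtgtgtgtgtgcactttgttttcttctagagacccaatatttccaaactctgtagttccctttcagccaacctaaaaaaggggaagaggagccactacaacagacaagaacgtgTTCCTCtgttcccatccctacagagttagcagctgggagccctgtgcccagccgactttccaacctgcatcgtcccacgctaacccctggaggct
Lyz2, chr7:54798012-54798261, minus strand: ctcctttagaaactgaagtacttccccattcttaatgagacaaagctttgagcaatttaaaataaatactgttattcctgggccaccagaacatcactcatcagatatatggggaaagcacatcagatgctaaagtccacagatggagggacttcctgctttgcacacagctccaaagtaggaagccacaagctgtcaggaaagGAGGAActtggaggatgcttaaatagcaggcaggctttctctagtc
Laptm5, chr5:148371630-148371879, plus strand: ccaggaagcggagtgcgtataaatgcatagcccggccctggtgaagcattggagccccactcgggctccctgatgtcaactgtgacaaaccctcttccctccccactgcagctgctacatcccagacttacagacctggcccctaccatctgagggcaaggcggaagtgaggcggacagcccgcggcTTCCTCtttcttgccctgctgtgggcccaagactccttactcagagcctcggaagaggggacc
Cd68, chr10:54882442-54882691, minus strand: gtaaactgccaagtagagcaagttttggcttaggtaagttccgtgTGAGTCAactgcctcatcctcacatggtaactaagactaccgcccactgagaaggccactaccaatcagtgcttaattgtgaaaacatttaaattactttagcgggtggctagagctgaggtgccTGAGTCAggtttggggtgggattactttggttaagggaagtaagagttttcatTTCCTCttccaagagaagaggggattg
GAGGAA on either strand stood in 6 of the 8 promoters, in those of Cd68, Csf1r, Mrc1, Lyz2, Cd14 and Laptm5, and in 23.3% of all 33469 promoters of the same length. It did not stand in these 250 bases of Mpeg1 or Cd163. TGANTCA stood in 1 of the 8, that of Cd68, against 6.34% of all promoters.

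Mpeg1 had 31739, 31862 and 2352 reads in HIP30, HIP2 and HIP3, against 0, 2949 and 3038 reads in WT26, WT1 and WT4. These are 2097, 1979 and 141 CPM in the HIP libraries, against 0, 169 and 192 CPM in the WT libraries. The genotype groups overlapped, since HIP3 lay below WT1 and WT4. The mean of HIP30 and HIP2 was 14.5 times the level of HIP3 and 10.6 times that of WT4. A count of 0 in WT26 allows up to 0.171 CPM (3 reads, counting error only), so that HIP3, the lowest library with reads, was at least 825-fold higher than WT26. Of the 12102 genes tested, 9 had at least 1 CPM in HIP3 and were at least 10 times as high in both HIP30 and HIP2. These 9, found after the values were seen, were Mpeg1, Reg3g, Sst, Ccl22, Slitrk4, Esr1, Grik2, Slc35f1 and LOC691352, and none is among the macrophage genes set beside Mpeg1, of which Cd163 had under 1 CPM in HIP3.

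**Figure D1:**
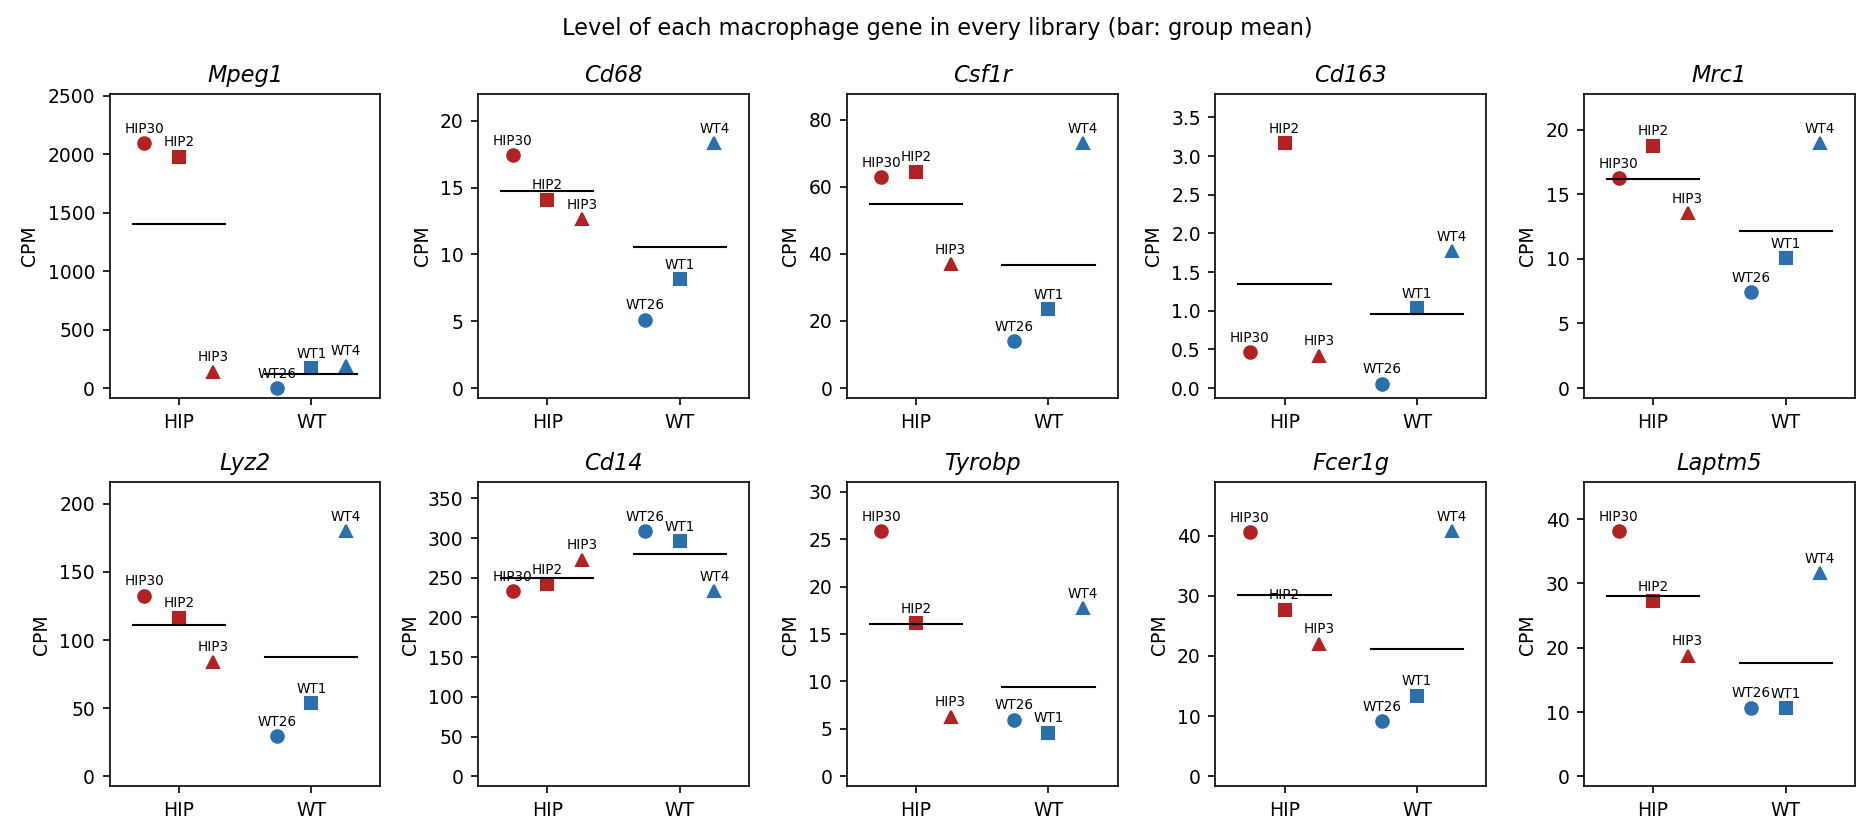
Level in CPM (linear axes, each with its own scale) of the 10 macrophage genes in each HIP library (red) and each WT library (blue), with the group mean as a bar. Mpeg1 stood at 2097 and 1979 CPM in HIP30 and HIP2 and at 192 CPM or less elsewhere, while WT4 was the highest library for 5 of the other 9 genes and Cd14 was nearly level.

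Of the surface receptors, Csf1r, the receptor of macrophage colony-stimulating factor, stood at 62.9, 64.4 and 37.0 CPM for HIP30, HIP2 and HIP3, against 14.0, 23.4 and 73.0 CPM in WT26, WT1 and WT4. Mrc1, the mannose receptor, stood at 16.2, 18.8 and 13.5 CPM in the HIP libraries, against 7.40, 10.03 and 19.0 CPM in the WT libraries. For both genes WT4 was the highest library and WT26 the lowest, and each HIP library lay between WT1 and WT4. Cd163, the scavenger receptor for haemoglobin bound to haptoglobin, had 7, 51 and 7 reads in the HIP libraries, against 1, 18 and 28 reads in the WT libraries. At these low counts HIP30, where Mpeg1 was highest, held 0.462 CPM of Cd163, less than WT1 with 1.03 CPM. Cd14, the co-receptor for bacterial lipopolysaccharide, stood at 233, 242 and 273 CPM in the HIP libraries, against 309, 296 and 233 CPM in the WT libraries. It varied 1.32 times between the highest and lowest library, and its order ran against the other genes, with WT26 highest and WT4 lowest.

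Of the genes of digestion and lysosomes, Lyz2, the lysozyme of macrophages, stood at 133, 116 and 84.2 CPM for HIP30, HIP2 and HIP3, against 29.4, 53.8 and 180 CPM in WT26, WT1 and WT4. Lyc2, a lysozyme gene next to it that RefSeq lists with Lyz2 as an older name, was chosen after the values were seen and had at most 49 reads in any library. Reads shared between the pair could not be separated. Cd68, a glycoprotein of macrophage lysosomes, stood at 17.4, 14.1 and 12.6 CPM in the HIP libraries, against 5.12, 8.14 and 18.3 CPM in the WT libraries. Laptm5, a lysosomal membrane protein of blood cells, stood at 38.1, 27.2 and 18.8 CPM in the HIP libraries, against 10.7, 10.6 and 31.6 CPM in the WT libraries. WT4 stood above all HIP libraries for Lyz2 and Cd68, and between HIP30 and HIP2 for Laptm5.

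Of the adaptors, which carry the signalling motif called ITAM, Tyrobp stood at 25.8, 16.1 and 6.28 CPM for HIP30, HIP2 and HIP3, against 5.98, 4.59 and 17.7 CPM in WT26, WT1 and WT4. HIP3 lay just above WT26 and WT1 for this gene, and the mean of HIP30 and HIP2 was 3.34 times HIP3. Fcer1g, the gamma chain shared by Fc receptors, stood at 40.6, 27.7 and 22.0 CPM in the HIP libraries, against 9.16, 13.4 and 40.7 CPM in the WT libraries. HIP30 and WT4 were level at the top and WT26 was lowest. The overlap of the groups held for each of the 10 genes: in none did all 3 HIP libraries lie above, or all below, the 3 WT libraries. Over all genes tested, all HIP libraries lay above all WT libraries in 6.14% and below in 3.86%.

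The other macrophage genes followed Mpeg1 in part. WT26, without a Mpeg1 read, was the lowest library for 6 of the 9, and for 30.7% of all genes tested. HIP30 and HIP2 both lay above HIP3 in CPM for 8 of the 9, all but Cd14, and for 5555 of 12102 genes tested. For Cd163 the place of HIP30 above HIP3, 0.462 against 0.419 CPM, came from the library totals alone, as the reads were equal. The sizes differed: the mean of HIP30 and HIP2 over HIP3 was 1.25 for Cd68, 1.29 for Mrc1, 1.48 for Lyz2, 1.55 for Fcer1g, 1.72 for Csf1r, 1.74 for Laptm5, 3.34 for Tyrobp and 4.33 for Cd163, against 14.5 for Mpeg1. The Cd163 ratio came from HIP2 alone, with 51 reads, as HIP30 and HIP3 had 7 reads each. WT4 and WT1 carried Mpeg1 at nearly the same level, a ratio of 1.14, whereas Csf1r, Fcer1g, Lyz2 and Tyrobp were 3.03 to 3.86 times as high in WT4 as in WT1. The same ratio was 2.98 for Laptm5, 2.25 for Cd68, 1.89 for Mrc1, 1.72 for Cd163 and 0.787 for Cd14. HIP30 was the highest library for 2 of the 9, Tyrobp and Laptm5, as for Mpeg1, and WT4 for 5 of the 9.

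Set against a read of Csf1r, Mpeg1 had 33.3, 30.7 and 3.81 reads in HIP30, HIP2 and HIP3, against 0, 7.21 and 2.63 reads in WT26, WT1 and WT4. Per read of Lyz2 it had 15.8, 17.0 and 1.67 reads in the HIP libraries, against 0, 3.14 and 1.07 reads in the WT libraries. The ratio differed 12.7 times for Csf1r and 15.9 times for Lyz2 between the highest and lowest library with Mpeg1 reads. In WT26 Csf1r had 246 reads and Lyz2 517, where Mpeg1 had none.

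**Figure D2:**
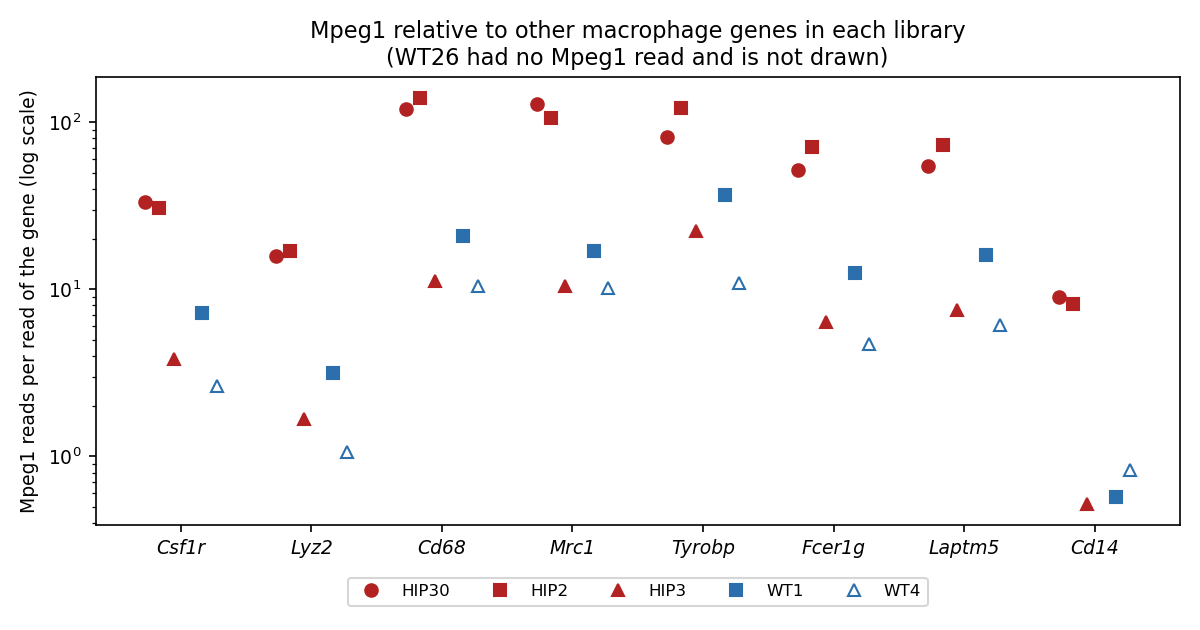
Mpeg1 reads per read of 8 other macrophage genes (log axis) in HIP libraries (red) and WT libraries (blue), without Cd163, whose counts were low, and without WT26, where Mpeg1 had 0 reads. HIP30 and HIP2 lay above HIP3, WT1 and WT4 for all 8 genes, with 33.3 and 30.7 per Csf1r read against 2.63 to 7.21 in the other libraries with Mpeg1 reads.

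Genes most like Mpeg1 over the 6 libraries were ranked by the root mean square difference between profiles of log2(CPM + 0.121), with CPM here scaled by TMM factors and each profile centred on its own mean, where a smaller value is closer. Among the 5 closest of 12101 genes were Akr1cl at 0.68, Lbp, the lipopolysaccharide-binding protein that hands its ligand to CD14, at 1.07, Reg3g, a secreted lectin, at 1.13 and Sst, the hormone somatostatin, at 1.24, against a median of 4.70 over all genes. These 4 had no read in WT26. Lbp stood at 473, 299 and 117 CPM for HIP30, HIP2 and HIP3, against 0, 43.2 and 153 CPM in WT26, WT1 and WT4. Of the 9 macrophage genes, 8 lay between 3.80 for Cd163, at rank 484, and 4.33 for Mrc1, at rank 1507, all closer than that median, and Cd14 lay beyond it at 4.86, at rank 9124. Without WT26 the closest were LOC691352 at 0.22, the chemokines Ccl22 at 0.42 and Ccl17 at 0.50, Sst at 0.52 and Eya4 at 0.53, and the nearest of the 9 was Tyrobp at 1.26, at rank 551, against a median of 1.73 over all genes. Cd163 at 1.82 and Cd14 at 1.87 lay beyond that median and the other 7 within it. The likeness has no test, as Mpeg1 was chosen on these libraries.

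Dtx4, which encodes a ubiquitin ligase of the Deltex family, is the next gene after Mpeg1 in RefSeq's GRCr8 annotation, where the pair do not overlap. Dtx4 had 1596, 1505 and 545 reads in HIP30, HIP2 and HIP3, against 159, 392 and 479 reads in WT26, WT1 and WT4. The order of the libraries was that of Mpeg1 for the upper pair, HIP30 and HIP2, and for the lowest, WT26. Its root mean square difference from Mpeg1 was 3.67, at rank 370, closer than any of the 9 macrophage genes, and 0.92, at rank 90, without WT26. All 3 HIP libraries lay above all 3 WT libraries for Dtx4, at a log2 difference of 1.82 ± 0.53 (standard error) that missed limma over all genes (adjusted p = 0.691). There were 19.9, 21.2 and 4.32 Mpeg1 reads per Dtx4 read in the HIP libraries, against 0, 7.52 and 6.34 in the WT libraries. The sources used here do not state strandedness and the reads were placed on rn5, so whether reads passed between the pair was not tested. The other neighbours within 2 genes of Mpeg1 were not analysed here. Among them was the pseudogene Fam111a-ps1, which is not among the measured genes. Fam111a itself, whose position is not given here, was chosen after the values were seen and ran the other way. It had 0, 1166 and 9626 reads in the HIP libraries, against 13652, 20898 and 1425 reads in the WT libraries.

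**Figure D3:**
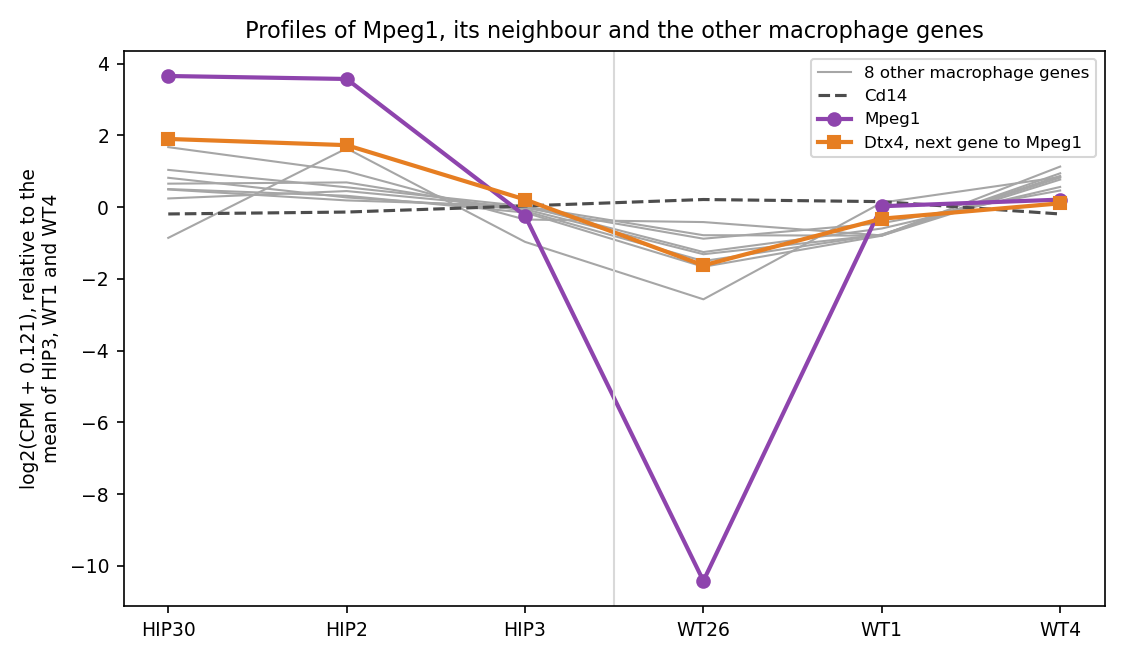
log2(CPM + 0.121) in each library relative to the mean of HIP3, WT1 and WT4, for Mpeg1 (purple), its neighbour Dtx4 (orange), Cd14 (dashed) and the other 8 macrophage genes (grey). Mpeg1 and Dtx4 were highest in HIP30 and HIP2 and lowest in WT26, while most grey lines were also raised in WT4; the depth of the Mpeg1 point in WT26 depends on the pseudocount, as the gene had 0 reads there.

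Between genotypes, none of the 9 macrophage genes passed limma's test, and 8 of the 9 had a positive difference, HIP minus WT, against 51.1% of all genes tested. Csf1r averaged 54.8 ± 15.4 CPM in HIP and 36.8 ± 31.7 CPM in WT libraries (SD, n = 3 each), a log2 difference of 0.80 ± 0.53 (standard error). Laptm5 averaged 28.0 ± 9.69 CPM in HIP and 17.6 ± 12.1 CPM in WT, a log2 difference of 0.73 ± 0.44 (standard error). Tyrobp, Fcer1g, Lyz2 and Cd68 had log2 differences of 0.73, 0.69, 0.66 and 0.59. For Mrc1 and Cd163 the differences were 0.44 and 0.42, and for Cd14 -0.23. The Benjamini-Hochberg adjusted p of limma ran from 0.704 for Laptm5 to 0.951 for Cd163, and the unadjusted p from 0.135 to 0.719. The median of the 9 was 0.66, against 0.01 over all genes tested.

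Over all genes tested, 0 passed limma at an adjusted p of 0.05 (0% called) and limma-voom also called 0, while 792, or 6.54%, had an unadjusted p under 0.05, none of them among the 9. WT4 and WT26 set much of the size of the differences. Without WT4 the Csf1r difference was 1.43, that of Lyz2 1.33 and that of Fcer1g 1.27, and without WT26 they were 0.30, 0.09 and 0.26. Cd163 turned to -0.59 without WT26 and to -0.43 without HIP2. Among the 4 libraries with the numbers 1 to 4 in their titles, Lyz2 was level at -0.0038 and Cd163 stood at -0.16.

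Other macrophage genes, in lists written with earlier results of these data known, also lay mostly on the positive side without a call. Of 80 tested genes in 7 lists, 57 were positive and 23 negative, with a median log2 difference of 0.43, and 0 passed limma at an adjusted p of 0.05, with 6 at an unadjusted p under 0.05. The groups did not overlap in 7 of the 80, with HIP higher in 3 and lower in 4, near the shares of 6.14% and 3.86% over all genes tested. The median was 0.24 without WT26, 0.29 without WT1, 0.80 without WT4, 0.23 without HIP30, 0.70 without HIP3 and 0.001 among the libraries numbered 1 to 4. WT26 was the lowest library for 40 of the 80 and HIP30 the highest for 35, while over all genes tested these libraries held that place in 30.7% and 32.6%.

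Of the growth factor and lineage genes, 9 of 14 tested were positive, with a median of 0.19. Csf2rb, the beta chain shared by receptors for several myeloid cytokines, had 451, 305 and 140 reads in HIP30, HIP2 and HIP3, against 1, 99 and 132 reads in WT26, WT1 and WT4. Its groups did not overlap, but HIP3 at 8.38 CPM and WT4 at 8.34 CPM were nearly level. The log2 difference of 2.98 ± 1.34 (standard error) includes WT26 with its 1 read. Il34, a ligand of the Csf1r receptor, did not overlap either, at 1.03, while Csf1, the other ligand, differed by 0.21. Spi1, which encodes PU.1, had 124, 94 and 46 reads in the HIP libraries, against 27, 19 and 78 reads in the WT libraries. Irf8, a transcription factor of monocyte development, had 149, 142 and 199 reads in the HIP libraries, against 240, 305 and 244 reads in the WT libraries. All 3 HIP libraries lay below all 3 WT libraries for Irf8, at a log2 difference of -0.68 ± 0.30 (standard error). None of them passed (limma, adjusted p of 0.691 for Csf2rb, Il34, Spi1 and Irf8, and 0.856 for Csf1).

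Of the scavenger and resident receptors 9 of 12 were positive, with the highest median of the 7 lists, 1.11. Clec7a, the beta-glucan receptor, had 195, 268 and 151 reads in HIP30, HIP2 and HIP3, against 17, 63 and 188 reads in WT26, WT1 and WT4. Cx3cr1, the fractalkine receptor, had 330, 202 and 46 reads in the HIP libraries, against 0, 81 and 245 reads in the WT libraries. WT4 was high for both, as for Csf1r. Msr1, a class A scavenger receptor, went against its list with 7, 17 and 7 reads in the HIP libraries, against 29, 22 and 27 reads in the WT libraries. Marco had 1 read in all libraries together.

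Of 7 complement genes 6 were positive, with a median of 0.78. C1qb, a chain of the C1q complex that macrophages secrete, had 606, 266 and 100 reads in HIP30, HIP2 and HIP3, against 70, 110 and 408 reads in WT26, WT1 and WT4. Itgam, an integrin chain of myeloid cells, had 159, 104 and 171 reads in the HIP libraries, against 34, 46 and 83 reads in the WT libraries. Itgam was the complement gene without overlap, at a log2 difference of 1.45 ± 0.47 (standard error), with a limma adjusted p of 0.691, while Itgb2, its partner chain, differed by -0.38.

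Of 14 Fc receptor and ITAM signalling genes 11 were positive, with a median of 0.61. Sirpa, an inhibitory receptor of phagocytes, averaged 89.8 ± 27.8 CPM in HIP and 45.8 ± 30.3 CPM in WT libraries (SD, n = 3 each). Pik3ap1, an adaptor of the PI3 kinase pathway, had 1211, 1271 and 262 reads in HIP30, HIP2 and HIP3, against 258, 311 and 607 reads in WT26, WT1 and WT4. Inpp5d, a phosphatase of the same pathway, was lower in each HIP library than in each WT library, at -0.52, and Plcg2, the most abundant gene of the list, differed by -0.01. Lilrb4, an inhibitory receptor, differed by 2.34 ± 0.89 (standard error).

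Of 15 oxidase and lysosome genes 10 were positive, with a median of 0.19. The phagocyte oxidase genes Cybb, Ncf1 and Ncf4 differed by 1.18, 0.88 and 1.01 and Cyba by 0.13, and Ctss, a cathepsin of antigen-presenting cells, by 1.01. Of the lysosomal genes, Gpnmb, Lgmn, Lipa and Hexa differed by 1.05, 0.45, 0.19 and 0.16, and Ctsb, Ctsd, Lamp1 and Gusb by -0.36, -0.18, -0.15 and -0.06. Of 11 genes around CD14 and the Toll-like receptors 8 were positive, with a median of 0.43, where Lbp stood highest at 4.72 ± 2.29 (standard error), and Tlr4, the receptor that CD14 serves, differed by -0.25. Of 7 iron and haem genes 4 were positive, with a median of 0.37, and Hmox1, the haem oxygenase, differed by -1.21. None of the genes in these lists passed limma over all genes.

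**Figure D4:**
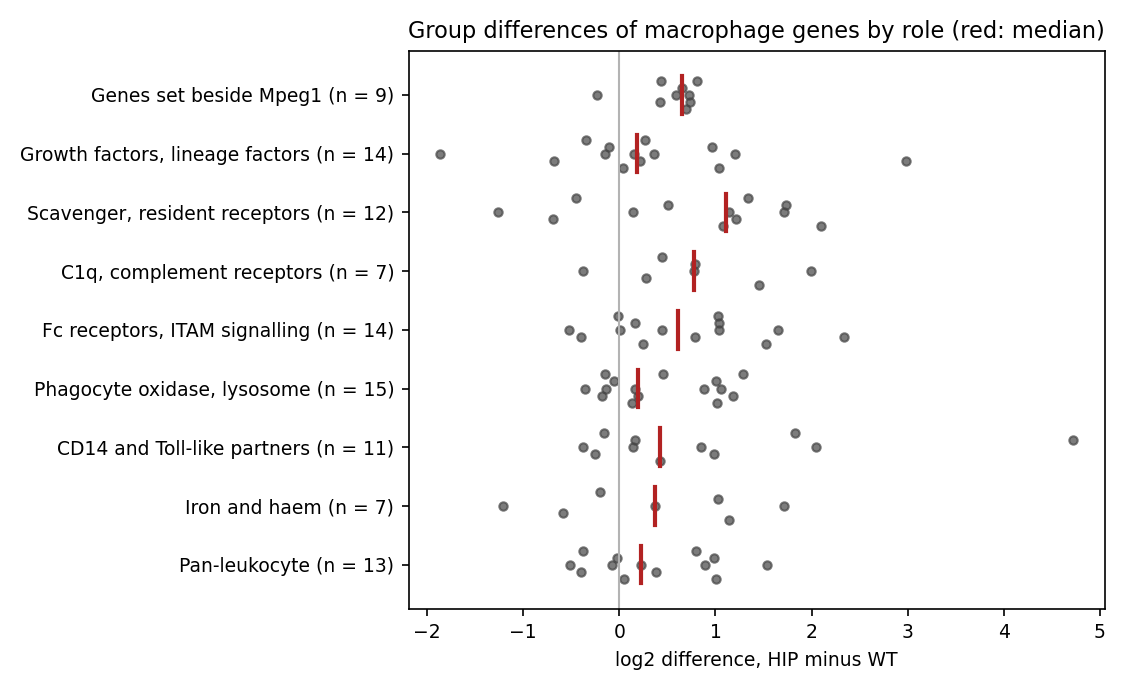
log2 difference, HIP minus WT, of each tested gene in the macrophage and leukocyte lists (points) with the median of each list (red). All 9 medians lay above 0, at 0.66 for the genes set beside Mpeg1 and from 0.19 to 1.11 for the lists, and no point passed the test over all genes.

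Markers of other cells were summed in each library. Of 15 genes of all white blood cells 14 are measured, and their summed level was 559, 555 and 487 CPM for HIP30, HIP2 and HIP3, against 419, 404 and 663 CPM in WT26, WT1 and WT4, the order of Csf1r for the highest library. Ptprc, the CD45 antigen, averaged 73.7 ± 2.10 CPM in HIP and 69.6 ± 22.0 CPM in WT libraries (SD, n = 3 each). The 11 T and NK cell genes summed to 14.5, 11.5 and 11.4 CPM in the HIP libraries, against 4.72, 4.24 and 26.1 CPM in the WT libraries, and of 9 measured neutrophil genes the sum was 9.71 CPM or less in each library. Of 7 measured B cell genes the sum was 290, 219 and 65.5 CPM in the HIP libraries, against 11.4, 37.7 and 87.5 CPM in the WT libraries. Nearly all of it was Pou2af1, with 4376, 3514 and 1074 reads in the HIP libraries, against 179, 651 and 1361 reads in the WT libraries, while Ms4a1 and Pax5 had 4 reads or fewer in any library.

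Other members of the family with the pore-forming domain of Mpeg1 were scarce. Of 7 measured genes 3 passed the filter, and C9, the last component of the complement pore, had 338, 254 and 74 reads in HIP30, HIP2 and HIP3, against 41, 114 and 170 reads in WT26, WT1 and WT4. C8a, another chain of that pore, had 48, 45 and 12 reads in the HIP libraries, against 4, 5 and 13 reads in the WT libraries. Astn1, an astrotactin of nerve cells, had 0, 9 and 40 reads in the HIP libraries, against 31, 52 and 76 reads in the WT libraries. HIP30 was the highest library for C9 and C8a and the lowest for Astn1.

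Epithelial and stromal markers moved between libraries too. Duct and gland epithelium markers, 10 of 12 measured, summed to 10036, 9429 and 12462 CPM for HIP30, HIP2 and HIP3, against 25656, 13747 and 10343 CPM in WT26, WT1 and WT4. WT26, with no Mpeg1 read and the least Csf1r, thus held the most epithelial marker RNA. The 10 fibroblast genes summed to 394, 767 and 1702 CPM in the HIP libraries, against 1200, 1813 and 2192 CPM in the WT libraries, so HIP30 and HIP2 were low where Mpeg1 was high. Of 9 measured islet genes the sum was 282, 342 and 4973 CPM in the HIP libraries, against 0, 114 and 11864 CPM in the WT libraries. This sum joined genes with unlike patterns. Sst stood at 267, 175 and 9.94 CPM in the HIP libraries, against 0, 25.8 and 36.4 CPM in the WT libraries. The insulin gene Ins1 stood at 0, 104 and 3631 CPM in the HIP libraries, against 0, 64.4 and 8069 CPM in the WT libraries. Ins2, the other insulin gene, also had 0 reads in HIP30 and WT26. Of the other lists, the acinar genes, 9 measured, summed to between 23.6 and 122 CPM. The endothelial genes, 9 measured, summed to between 140.5 and 271 CPM and the 8 adipocyte genes to between 63.7 and 150 CPM. The dendritic cell genes, 7 measured, summed to between 8.02 and 18.0 CPM. The mast cell genes, 8 measured, summed to between 49.3 CPM in HIP30 and 133 CPM in WT1. Nearly all of that sum was Kit, at 47.6 CPM in HIP30 and 132 CPM in WT1, the only mast cell gene to pass the filter. The part of these other cells in the levels of the macrophage genes was not tested.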

How the data were processed

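RNA of laser-captured glands was measured in 6 libraries, 3 per genotype, grouped by their titles. The submitters' processing notes name STAR, HTSeq, edgeR, limma and the build rn5, with neither versions nor order. The authors deposited per library a log2 value for each of 15679 rows. Those values are log2 CPM with 0.25 reads added at the size of the mean library, and whole reads were recovered from them for 100% of entries within 0.1 reads. The 4 rows of 2 repeated symbols were left out.

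Genes with at least 10 reads at the median library in 3 libraries and 15 reads in total were tested with limma 3.58.1 (R 4.3.3, trend option) on log2 of TMM-scaled CPM with 2 reads at the mean library (0.121 CPM) added, which understates the change of low genes. P-values were adjusted over all genes by Benjamini-Hochberg. Levels in the text are CPM of the library total, and counts of 0 are limited by 3 reads. These limits for counts of 0 cover counting error only, as reads carry no molecular identifiers. Values after ± are SDs between libraries or limma's standard errors, as named beside them. The scaling and limma steps were run on simulated reads with the same added spread for every gene, a simpler setting than these libraries.

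The genes and lists were chosen with earlier results of these data known. Named genes are the 10 chosen genes, the 5 closest to Mpeg1, its neighbours within 2 annotated genes, and of each list up to 3 with the highest mean CPM and, in myeloid and leukocyte lists, up to 2 with the lowest p, of which the text prints part, and a few genes are not reported here. Csf2rb, Il34, Spi1, Marco, Pik3ap1, Inpp5d, Cybb, Cyba, Ncf1, Ncf4, Lgmn, Lipa, Hexa, Gusb, Ms4a1, Pax5, Lyc2, Fam111a and the genes closest to Mpeg1 without WT26 fall outside it and were named after their values were seen. Alternatives covered scaling, pseudocount, filter, limma-voom, the deposited values and leaving libraries out. Of 15677 symbols 15240 match a symbol or synonym of RefSeq's GRCr8 table. Figures were drawn with matplotlib 3.10.9.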

Additional observations from a re-analysis of the deposited data

How the results depend on the processing

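No paired analysis was possible because the groups share no replicate number. The count of genes passing limma stayed at 0 under all alternatives, with the smallest adjusted p at 0.0882 without HIP3. The number of positive differences among the 9 genes beside Mpeg1 was 8 under each scaling, pseudocount, filter and test, 6 among the libraries numbered 1 to 4, and 7 to 8 with single libraries left out. Signs turned for Cd163, to -0.16 among the libraries numbered 1 to 4, -0.59 without WT26 and -0.43 without HIP2, and for Lyz2, to -0.0038 among the libraries numbered 1 to 4; the cause was not tested. With single libraries left out Cd163 ran from -0.59 to 1.07 and Lyz2 from 0.09 to 1.33. Library totals in place of TMM factors put the median of all genes at 0.08 and that of the 80 macrophage list genes at 0.50, and this second median ran from 0.23 to 0.80 with libraries left out. The distance of each gene from the Mpeg1 profile rests largely on WT26, where Mpeg1 had 0 reads. The same library was highest as for Mpeg1 in 2 of the 9 genes, in 1 with median-of-ratios factors and in 3 without WT4. Cd163, at 51 reads or fewer, is limited by depth.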
